A study of Mus musculus with 59 samples.

Results

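The Wnt, FGF and BMP genes described here are the 51 genes, of 24391 in the deposited files, whose symbol is Wnt, Fgf or Bmp followed by a number and, in some, the letter a or b. Fgf5 was left out of them and serves below as a marker of the epiblast. They comprise 19 Wnt genes, 14 genes of paracrine FGFs, 3 genes of endocrine FGFs (Fgf15, Fgf21 and Fgf23) and 10 genes of BMP ligands. Another 5 genes carry a family name without being secreted ligands, namely Fgf11, Fgf12, Fgf13 and Fgf14, which encode FGF homologous factors that stay inside the cell, and Bmp1, which encodes a protease that trims procollagen. RNA-seq was performed on mouse embryonic stem cells (ESCs) and on embryoid bodies (EBs), the aggregates that ESCs form in suspension, in 6 conditional lines in which components of Polycomb repressive complex 1 (PRC1) are removed or inactivated. PRC1 is a chromatin complex that monoubiquitinates histone H2A at lysine 119 through RING1A or RING1B and helps to keep developmental genes silent.

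Every test below is within 1 of 2 of these lines. The 19 libraries of the Pcgf1 line compare ERT2-Cre;Pcgf1f/f cells kept without 4-OHT (4 control ESC and 5 control EB libraries) with ERT2-Cre;Pcgf1delta/delta cells given 4-OHT (5 Pcgf1-KO ESC and 5 Pcgf1-KO EB libraries). PCGF1 is the subunit that defines the variant complex PRC1.1. The 8 libraries of the point mutant line compare ERT2-Cre;Ring1apm/pm;Ring1b cells without 4-OHT (controls) with ERT2-Cre;Ring1apm/pm;Ring1bpm/pm cells given 4-OHT (mutants), with 2 libraries in each of the 4 groups. The controls of that line therefore carry mutant Ring1a as well, and it is RING1B that loses its catalytic activity after 4-OHT. In both lines 4-OHT is present in the mutants only, so its own effect and that of the genotype cannot be told apart. The Cre recombinase is ERT2-Cre, which acts when 4-OHT is present. Each genotype appears to be 1 ESC line, and the labels do not say that replicates came from separate cultures, so p-values measure the spread between these libraries, which may be technical.

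Wnt ligands bind Frizzled receptors with LRP5 or LRP6, which stabilises beta-catenin and turns on genes such as Axin2, Sp5 and T. FGF ligands bind FGF receptors and signal to a large extent through MEK and ERK, which turns on genes such as Spry2, Dusp6 and Etv4. BMP ligands bind receptor kinases that phosphorylate SMAD1 and its relatives, which turns on the Id genes. In ESCs, FGF4 made by the cells themselves drives the exit from self-renewal, BMP4 and LIF support self-renewal, and Wnt3, Fgf8 and Wnt8a are expressed around the start of gastrulation in the embryo. The culture medium of ESCs acts on the same pathways. It held LIF, SU5402 (an inhibitor of FGF receptors), PD184352 (an inhibitor of MEK) and CHIR99021 (an inhibitor of GSK3 that mimics a Wnt signal), and the cells grew on mouse embryonic fibroblasts. EBs were kept for 2 days without these 4 agents on low attachment dishes. A comparison of EBs with ESCs is therefore also one of the presence of the inhibitors and of feeder cells.

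Promoters of 3 of the genes are printed because these genes carry the results below, Wnt7a and Wnt4 as genes higher in the point mutant and Fgf10 as the gene that was lowest in EBs relative to ESCs. Each sequence is the 250 bases before the start of the gene in RefSeq (GRCm38.p6), 5′ to 3′ on the strand of the gene, with every CG dinucleotide in capitals. The Wnt7a sequence lies at chr6:91411354-91411603 (minus strand) and holds 34 CG dinucleotides. The Wnt4 sequence lies at chr4:137277385-137277634 (plus strand) and holds 44, and the Fgf10 sequence lies at chr13:118714449-118714698 (plus strand) and holds 8.
Wnt7a: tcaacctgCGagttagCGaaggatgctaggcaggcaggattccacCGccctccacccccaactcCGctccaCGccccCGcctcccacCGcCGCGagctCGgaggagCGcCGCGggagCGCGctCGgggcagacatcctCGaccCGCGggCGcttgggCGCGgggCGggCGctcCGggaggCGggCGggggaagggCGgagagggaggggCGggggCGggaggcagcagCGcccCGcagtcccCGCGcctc
Wnt4: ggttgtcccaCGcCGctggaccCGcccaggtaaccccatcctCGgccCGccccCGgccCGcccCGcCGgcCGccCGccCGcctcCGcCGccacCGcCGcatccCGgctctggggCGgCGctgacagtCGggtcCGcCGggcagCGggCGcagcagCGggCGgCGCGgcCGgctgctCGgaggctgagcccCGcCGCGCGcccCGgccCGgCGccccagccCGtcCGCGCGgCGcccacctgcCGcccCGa
Fgf10: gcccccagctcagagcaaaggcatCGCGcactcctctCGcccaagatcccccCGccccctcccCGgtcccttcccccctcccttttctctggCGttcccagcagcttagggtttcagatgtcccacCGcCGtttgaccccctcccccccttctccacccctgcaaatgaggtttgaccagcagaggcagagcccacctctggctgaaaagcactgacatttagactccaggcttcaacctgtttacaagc

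CG-rich promoters are the usual binding sites of PRC1 in ESCs. A RefSeq promoter was found for 37 of the 51 genes, and none was given for Bmp1, Bmp2, Bmp3, Bmp7, Fgf1, Fgf8, Fgf15, Fgf16, Fgf17, Fgf20, Wnt5a, Wnt7b, Wnt8a and Wnt10a. Counting the letters CG, which read the same on both strands, the 37 promoters held a median of 15, against a median of 6 over all 27025 promoters of the table. At least 10 were found in 23 of the 37 (62.2%) and in 38.2% of all promoters. The Wnt promoters were the richest family, with a median of 28 and at least 10 in 13 of 15 (86.7%), from 5 in Wnt8b to 48 in Wnt9a. Promoters of paracrine FGFs and of BMP ligands each had a median of 11. These counts describe the sequence and show no binding.

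The files give TPM, a level per length of transcript scaled to the same total in each library. As each library summed to 1000000 TPM, read depth is unknown and no counting interval can be given. Between 6216 and 9139 genes were listed at 0 in a library of the Pcgf1 and point mutant lines. The targeted gene followed the labels in the Pcgf1 line, with Pcgf1 at 7.30 to 16.6 TPM in the 9 control libraries and 0.627 to 2.77 TPM in the 10 KO libraries. For the point mutant line no level checks the labels, since a point mutation leaves the transcript in place. Rnf2, which encodes RING1B, was at 54.5 to 85.8 TPM there. Of the 32 libraries of the Ring1AB, Pcgf24, Pcgf35 and Pcgf6 lines, 21 carry a label whose stage or genotype differs from the name of the deposited file, and these lines are given by value only, with no test, after the others.

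Of the 51 genes, 49 were above 0 TPM in at least 1 library of the Pcgf1 line (Bmp3 and Bmp10 were not) and 50 in the point mutant line (Bmp5 was not). Most of them were low. In all 27 genes in the Pcgf1 line and 30 in the point mutant line reached a mean of 1 TPM in any group, and 12 and 14 reached 5 TPM. The sum of all 51 genes was 212 to 391 TPM per library over both lines, and Fgf4 gave more of it than any other gene. The genes named with values below are the 27 that passed the test in a comparison with a group mean of at least 1 TPM, or reached a mean of 5 TPM in a group. Tests are from limma on log2(TPM + 0.1), with p-values adjusted over all genes tested (20594 in the Pcgf1 line and 20279 in the point mutant line). On the log2(TPM + 0.1) scale the fold changes of low genes come out too small. A gene is called when its adjusted p is below 0.05. Of the 27, Fgf1, Fgf11 and Wnt6 had their highest group means of the tested lines in the point mutant line (5.23, 7.68 and 6.19 TPM). None of them was called there.

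Fgf4, the main FGF of undifferentiated cells, was the highest of the 51 genes in every group of both lines. It stood at 225, 293, 308 and 215 TPM in control ESCs of the Pcgf1 line and at 127, 237, 178, 242 and 238 TPM in control EBs, 2 ranges that overlap. The point mutant line had 134 and 137 TPM in control ESCs and 223 and 176 TPM in control EBs. Its neighbours on chromosome 7 (mm9), Fgf3 at 152023988 to 152030341 and Fgf15 at 152082437 to 152086858 on either side of Fgf4 at 152047291 to 152051148, were expressed at quite different levels. In control cells of the Pcgf1 line Fgf3 ranged from 4.27 to 6.66 TPM in ESCs and from 1.90 to 5.34 TPM in EBs, with groups that overlap. Fgf17, a paracrine FGF related to Fgf8, was 6.36 to 14.2 TPM in these ESCs and 5.13 to 19.5 TPM in EBs, again with overlap.

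The first question is which ligand genes changed when control ESCs became EBs. In the Pcgf1 line 11 of 49 genes were called, 7 higher and 4 lower in EBs (22.4%), against 24.9% of all genes tested (11.5% higher and 13.4% lower), so the ligand genes as a set were called no more often than the rest. The median log2 fold change was 0.08 over the ligand genes and -0.0045 over all genes. The higher genes were Fgf15, Fgf8, Fgf13, Wnt3 and Wnt8a, together with Fgf9 and Fgf14, whose means stayed below 1 TPM in both groups, and the lower genes were Fgf10, Bmp7, Wnt7b and Bmp2. The point mutant line gave 6 of 50 genes in control EBs (12%), against 4.73% of all genes (2.73% higher and 2.0% lower), with Fgf15, Fgf8 and Wnt4 higher and Fgf10, Wnt5b and Bmp4 lower. The median was 0.06 over the ligand genes and 0.00 over all genes.

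**Figure D1:**
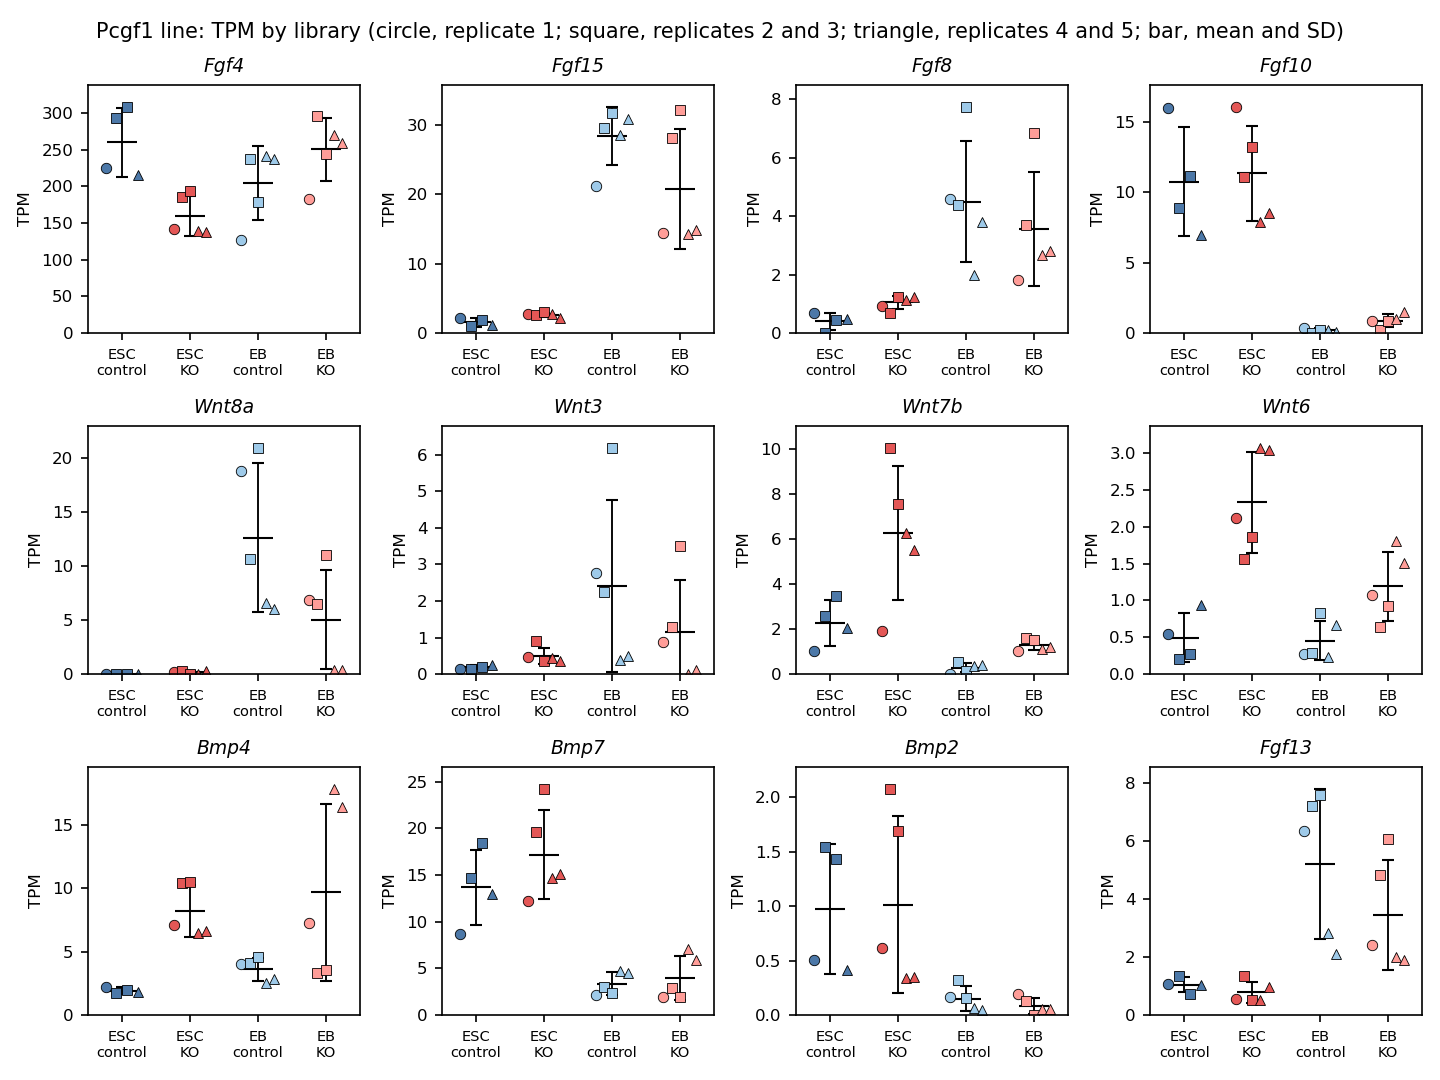
Levels of 12 ligand genes in the 19 libraries of the Pcgf1 line, in TPM on a linear axis that starts at 0, for control and Pcgf1-KO ESCs (dark) and EBs (light), with the mean and SD of each group as bars. In control cells Fgf15 lies between 0.940 and 2.23 TPM in ESCs and between 21.2 and 31.7 TPM in EBs, while Fgf10 lies between 6.96 and 16 TPM in ESCs and at or under 0.378 TPM in EBs.

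Fgf15, an endocrine FGF best known from the gut, rose in both lines. It was 2.23, 0.940, 1.89 and 1.12 TPM in control ESCs of the Pcgf1 line and 21.2, 29.5, 31.7, 28.6 and 30.9 TPM in control EBs. The groups do not overlap, and the log2 fold change was 4.18 (SE 0.28, adjusted p = 1.69e-08). The point mutant line had 5.50 and 9.53 TPM in control ESCs and 70.8 and 45.0 TPM in control EBs (log2 fold change 2.94, SE 0.33, adjusted p = 0.0047). Every control EB library of both lines was thus above every control ESC library.

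Fgf8, a ligand of the gastrulating embryo, went the same way. Levels were 0.678, 0, 0.430 and 0.492 TPM in control ESCs and 4.59, 4.4, 7.74, 1.98 and 3.81 TPM in control EBs of the Pcgf1 line (log2 fold change 3.42, SE 0.53, adjusted p = 0.000113). Control ESCs of the point mutant line had 0.502 and 0.593 TPM and control EBs 4.38 and 5.50 TPM (log2 fold change 2.95, SE 0.32, adjusted p = 0.00411). No control EB library overlapped the ESCs of its line.

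Wnt8a and Wnt3, both ligands of the early primitive streak, were nearly absent from control ESCs. Wnt8a was listed at 0 in all 4 control ESC libraries of the Pcgf1 line, so no fold is given, and was 18.8, 10.7, 20.9, 6.58 and 6.01 TPM in control EBs (adjusted p = 1.17e-05). Wnt3 did not exceed 0.260 TPM in control ESCs and reached 2.78, 2.23, 6.19, 0.382 and 0.489 TPM in control EBs (log2 fold change 2.57, SE 0.87, adjusted p = 0.0375). For both genes replicates 4 and 5, which the file headers give as a series of their own, were the lowest of the control EBs. The Wnt3 call was lost when any of control ESC replicates 1, 2, 3 or 4 or control EB replicates 1, 2 or 3 was left out (adjusted p 0.0551 to 0.101). Wnt8a of the point mutant line was 0.327 and 0.206 TPM in control ESCs and 3.30 and 0.857 TPM in control EBs and was not called (adjusted p = 0.0887), and Wnt3 did not exceed 0.358 TPM in controls. Of 5 other primitive streak markers none rose in control EBs of either line, and Gsc and Eomes fell in the Pcgf1 line.

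Fgf10, a ligand that mesenchyme sends to epithelium, was the gene with the lowest fold change. It was 16, 8.91, 11.2 and 6.96 TPM in control ESCs of the Pcgf1 line and 0.378, 0, 0.248, 0.208 and 0.0666 TPM in control EBs (log2 fold change -5.41, SE 0.49, adjusted p = 4.06e-07). The point mutant line had 2.86 and 2.84 TPM in control ESCs and 0.465 and 0.325 TPM in control EBs (log2 fold change -2.59, SE 0.43, adjusted p = 0.0198). All EB libraries lay below all ESC libraries in each line. Summed markers of fibroblasts, the cell type of the feeders, were also lower in control EBs of the Pcgf1 line. The sum of 12 fibroblast markers lay between 213 and 319 TPM in control ESCs and between 31.4 and 58 TPM in control EBs, with 6 of the 12 lower and Dcn and Thy1 higher in EBs, and Col1a1 was 126 to 218 TPM against 3.74 to 9.25 TPM. Control ESCs of the point mutant line had sums of 47.4 and 49.0 TPM and control EBs of 36.8 and 42.4 TPM, with no marker called. None of the 12 markers was at 0 in all libraries of these Pcgf1 groups, Lum was at 0 in the point mutant controls, and the part of feeder cells in the Fgf10 values was not tested.

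**Figure D2:**
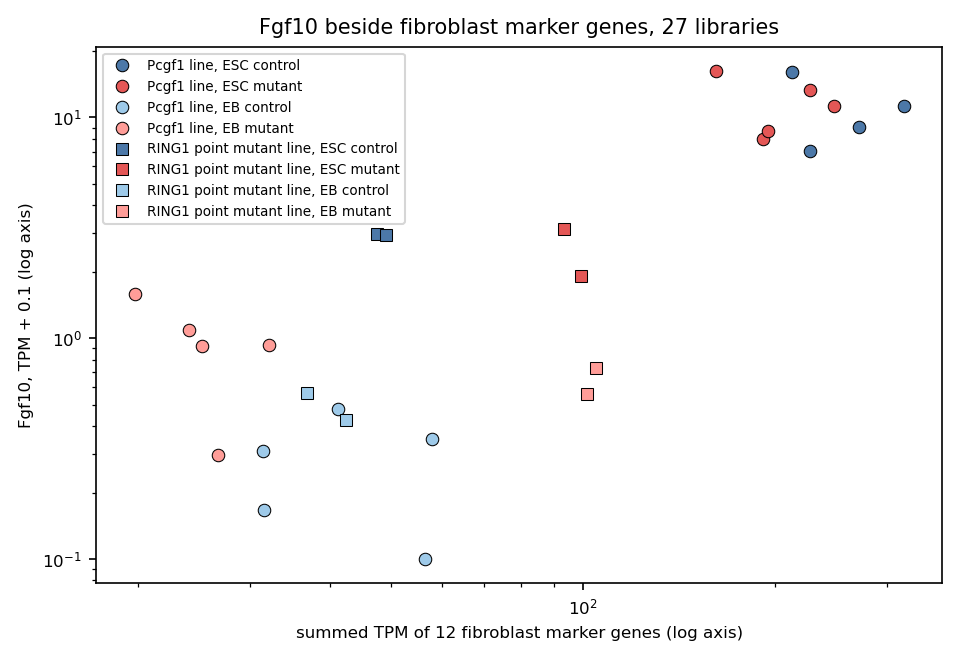
Fgf10 (TPM + 0.1, log axis) plotted against the summed TPM of 12 fibroblast markers (log axis) in the 27 libraries of the Pcgf1 line (circles) and the point mutant line (squares), coloured by group. Control ESCs of the Pcgf1 line lie at the upper right with marker sums of 213 to 319 TPM, and mutant EBs of the point mutant line have sums of 102 to 105 TPM with Fgf10 at 0.458 and 0.632 TPM.

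Bmp7, a BMP made by many epithelia, was 8.71, 14.7, 18.4 and 13 TPM in control ESCs and 2.12, 3.00, 2.32, 4.73 and 4.52 TPM in control EBs of the Pcgf1 line. The groups are apart, with a log2 fold change of -2.03 (SE 0.38, adjusted p = 0.000671). The libraries of each group of the point mutant line differed as much as the groups, with 4.20 and 10.1 TPM in control ESCs and 1.70 and 8.36 TPM in control EBs (log2 fold change -0.76, SE 0.76, not called). Wnt7b, a Wnt ligand of placenta and epithelia, fell from 1.01, 2.60, 3.47 and 2.06 TPM to 0, 0.525, 0.128, 0.377 and 0.379 TPM in the Pcgf1 line (log2 fold change -2.78, SE 0.53, adjusted p = 0.000771). Bmp2 was 0.502, 1.55, 1.43 and 0.409 TPM in control ESCs and did not exceed 0.325 TPM in control EBs, again without overlap (log2 fold change -2.01, SE 0.54, adjusted p = 0.0103). In the bulk samples fewer cells of a type and less RNA per cell cannot be told apart.

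Bmp4, the BMP that supports self-renewal, differed in level between the lines. Control ESCs had 2.24, 1.70, 1.99 and 1.79 TPM in the Pcgf1 line and 44.6 and 33.9 TPM in the point mutant line. In the latter it fell in control EBs, to 15.1 and 17.4 TPM (log2 fold change -1.26, SE 0.18, adjusted p = 0.0112). In the Pcgf1 line control EBs had 4.05, 4.07, 4.55, 2.51 and 2.83 TPM, all above the ESCs, but the gene was not called (log2 fold change 0.84, SE 0.42, adjusted p = 0.172). Within the library series it was called higher, with a log2 fold change of 1.06 over replicates 1 to 3 (SE 0.34, adjusted p = 0.0477) and 0.55 over replicates 4 and 5 (SE 0.12, adjusted p = 0.03), the latter with 1 control ESC library that is assumed to vary like the other groups. The lines were fitted apart and this difference between them was not tested.

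Of the remaining named genes in control cells, Wnt5b, a ligand that signals without beta-catenin, fell in the point mutant line from 4.12 and 2.95 TPM to 0.973 and 0.771 TPM (log2 fold change -1.89, SE 0.35, adjusted p = 0.029). It stayed at 1.26 to 3.49 TPM in all control libraries of the Pcgf1 line, and the groups overlap. Wnt4 rose in the point mutant line from 0.0866 and 0.0409 TPM to 0.596 and 0.827 TPM (log2 fold change 2.31, SE 0.47, adjusted p = 0.0397), a change that stays below 1 TPM. Fgf13, one of the intracellular factors, rose in the Pcgf1 line from 0.724 to 1.35 TPM in ESCs to 6.34, 7.2, 7.59, 2.81 and 2.09 TPM in EBs (log2 fold change 2.07, SE 0.45, adjusted p = 0.00235). Leaving out 1 library of the point mutant line reduced its 6 genes to between 1 and 3 and the genes called over all genes from 960 to between 156 and 197. Within the Pcgf1 line the replicate number as a block raised the count from 11 to 17, adding Wnt3a, Wnt11, Bmp8a, Fgf3 and Fgf4 as lower and Bmp6 as higher in EBs. Over all 20594 genes it raised the count from 5138 to 9050.

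The receptors, antagonists and responsive genes of the 3 pathways were also called in both directions between control ESCs and EBs. Their counts are read beside the shares of all genes called. These were 24.9% in the Pcgf1 line (11.5% higher and 13.4% lower) and 4.73% in the point mutant line. In the Pcgf1 line 4 of 15 Wnt receptor genes rose (Fzd7, Fzd2, Fzd3 and Ror1) and 3 fell (Fzd5, Ror2 and Fzd10), and Fzd7 went from a mean of 60.5 TPM to 196 TPM. Of 8 genes that respond to Wnt signals, Axin2, Cdx1 and Sp5 fell and Lef1 and Nkd1 rose. Axin2 had a mean of 38.1 TPM in control ESCs, where CHIR99021 was present, and 7.82 TPM in control EBs (log2 fold change -2.20, SE 0.39, adjusted p = 0.000388). Cdx1 and Sp5 fell and Lef1 rose in the point mutant line too. Of 16 Wnt antagonists, 2 rose (Sfrp2 and Trabd2b) and 3 fell (Dkk2, Dkk3 and Sfrp1) in the Pcgf1 line, and Sfrp5 fell in the point mutant line.

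Among 12 genes that respond to FGF signals, Dusp6, Etv1, Spred1 and Spry1 rose and Spry2 and Egr1 fell in the Pcgf1 line. Spry1 and Dusp4 rose and Etv4 fell in the point mutant line. Of 7 FGF receptor and co-receptor genes, Fgfrl1, Kl and Fgfr2 rose and Klb fell in the Pcgf1 line, and Fgfrl1 rose in the point mutant line. Of 8 genes that respond to BMP signals, Id1 rose and Id2 and Id4 fell in the Pcgf1 line, whereas Id2 rose and Smad7 fell in the point mutant line. Bmpr1b was the 1 of 7 BMP receptor genes and Chrdl1 the 1 of 14 BMP antagonists called, both higher in EBs of the Pcgf1 line. Over all genes 24.9% were called in that line and 4.73% in the point mutant line. As a check of the stage labels, all 4 epiblast markers rose in control EBs of both lines, and 8 of 8 markers of naive ESCs fell in the Pcgf1 line and 7 of 8 in the point mutant line.

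The same step in Pcgf1-KO cells called 15 of 49 genes, 8 higher and 7 lower (30.6%), against 18.3% of all genes (8.13% higher and 10.2% lower). In 7 genes every Pcgf1-KO EB library was above every Pcgf1-KO ESC library and in 5 below, against 6.68% and 8.56% of all genes. With the replicate number as a block 22 genes were called, while the calls over all 20594 genes rose from 3770 to 7573. The block added Fgf17 (log2 fold change -0.71, SE 0.21, adjusted p = 0.0142) and Wnt5b (-0.76, SE 0.25, adjusted p = 0.0267), both lower in 5 of 5 pairs, and Fgf21 (2.24, SE 0.69, adjusted p = 0.0184), higher in 5 of 5 pairs. It further added Bmp8a, Wnt7a and Bmp15 as lower and Fgf14 as higher. Fgf15 was 2.69, 2.56, 3.03, 2.68 and 2.09 TPM in Pcgf1-KO ESCs and 14.5, 28.1, 32.1, 14.2 and 14.9 TPM in Pcgf1-KO EBs (log2 fold change 2.86, SE 0.27, adjusted p = 5.85e-07). Fgf10 was 7.90 to 16.1 TPM and 0.195 to 1.49 TPM (log2 fold change -3.71, SE 0.46, adjusted p = 1.47e-05). Fgf4 rose from 142, 185, 193, 139 and 138 TPM to 182, 295, 244, 270 and 260 TPM, ranges that overlap between 182 and 193 TPM (log2 fold change 0.65, SE 0.19, adjusted p = 0.0217). Leaving out Pcgf1-KO EB replicate 2, or Pcgf1-KO ESC replicate 4 or 5, ended that Fgf4 call (adjusted p 0.0549 to 0.0584). Bmp7 (log2 fold change -2.25, SE 0.36, adjusted p = 0.00019), Bmp2, Wnt7b, Wnt3a, Wnt11 and Bmp1 fell as well. Wnt8a, Fgf8, Fgf13, Wnt5a, Bmp6 and Fgf12 rose, Fgf12 staying below 1 TPM. The call of Fgf8 was lost without any 1 of the Pcgf1-KO ESC libraries or of Pcgf1-KO EB replicates 2, 3 and 5 (adjusted p up to 0.104), and that of Bmp1 without Pcgf1-KO ESC replicate 2, 3, 4 or 5 or Pcgf1-KO EB replicate 1, 2, 4 or 5 (adjusted p up to 0.114). Without replicates 4 and 5 the count was 9, beside 2646 of all 19555 genes.

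No ligand gene was called for a difference in this step between Pcgf1-KO and control cells by limma, and 9 had an unadjusted p below 0.05, with 0.00486% of all genes called. With the replicate number as a block 1 was called, Fgf4 (difference in log2 fold change 1.03, SE 0.20, adjusted p = 0.0206, against 0.363 without the block). The block called 333 of all 20594 genes here.

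The second question is what the loss of PCGF1 did within a stage. In ESCs 2 of 49 genes were called, both higher (4.08%), against 0.641% of all genes (0.32% higher), and 11 had an unadjusted p below 0.05, 10 of them higher. The median log2 fold change was 0.33 over the ligand genes and -0.02 over all genes. In 8 genes every Pcgf1-KO ESC library was above every control, which held for 2.10% of all genes. In 1 gene, Fgf4, every Pcgf1-KO library was below, which held for 2.56% of all genes.

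Bmp4 was 2.24, 1.70, 1.99 and 1.79 TPM in control ESCs and 7.08, 10.4, 10.5, 6.45 and 6.6 TPM in Pcgf1-KO ESCs. Every KO library was at least 6.45 TPM, and the log2 fold change was 2.00 (SE 0.42, adjusted p = 0.0366). Within the library series the log2 fold change was 2.16 over replicates 1 to 3 (adjusted p = 0.0407) and 1.81 over replicates 4 and 5, where control ESCs have a single library and any test takes its spread from the other groups. Wnt6, a ligand of epithelia, was 0.541, 0.205, 0.275 and 0.941 TPM in control and 2.12, 1.57, 1.86, 3.07 and 3.05 TPM in Pcgf1-KO ESCs (log2 fold change 2.16, SE 0.44, adjusted p = 0.0278). The groups of both genes are apart. The fold change of Bmp4 lost its call when any 1 of the 9 ESC libraries was left out (adjusted p 0.0595 to 0.119), and that of Wnt6 without control ESC replicate 1, 2 or 3 or Pcgf1-KO ESC replicate 4 or 5 (adjusted p 0.062 to 0.124). The log2 fold change itself stayed between 1.91 and 2.08 for Bmp4 and was 1.90 to 2.26 for Wnt6 in those fits.

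Fgf4 was 225, 293, 308 and 215 TPM in control ESCs and 142, 185, 193, 139 and 138 TPM in Pcgf1-KO ESCs. The groups do not overlap, the log2 fold change was -0.70 (SE 0.20), and the gene was not called (adjusted p = 0.147). It was called with the replicate number as a block (log2 fold change -0.71, SE 0.14, adjusted p = 0.0112). Wnt3a, a ligand of the primitive streak, was 0.154 to 0.649 TPM in control and 0.795 to 2.19 TPM in Pcgf1-KO ESCs, apart but not called (log2 fold change 2.00, SE 0.56, adjusted p = 0.135). Fgf8 was at most 0.678 TPM in control and at least 0.701 TPM in Pcgf1-KO ESCs (log2 fold change 1.51, SE 0.53, adjusted p = 0.314). Bmp8b showed the same order, with 0.386 to 1.30 TPM against 1.49 to 2.63 TPM (adjusted p = 0.243), and is uncertain because reads can be split with its near-identical paralog Bmp8a. Fgf10 was 6.96 to 16 TPM in control and 7.90 to 16.1 TPM in Pcgf1-KO ESCs, with full overlap.

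In EBs 1 of 49 genes was called for the loss of PCGF1 (2.04%), against 1.95% of all genes (1.08% higher), and 10 had an unadjusted p below 0.05. Wnt7b was 0, 0.525, 0.128, 0.377 and 0.379 TPM in control EBs and 1.05, 1.61, 1.51, 1.11 and 1.21 TPM in Pcgf1-KO EBs, without overlap (log2 fold change 2.12, SE 0.50, adjusted p = 0.0347). Its call was lost without control EB replicate 1 or 3 or without Pcgf1-KO EB replicate 2, 3, 4 or 5 (adjusted p 0.0572 to 0.0855). With the replicate number as a block 4 genes were called, Wnt7b, Wnt6, Wnt4 and Fgf10, all higher in Pcgf1-KO EBs. The block raised the calls over all 20594 genes from 402 to 2143. Fgf10 was 0.822, 0.195, 0.833, 0.987 and 1.49 TPM in Pcgf1-KO EBs, which had fibroblast marker sums of 19.8 to 32.2 TPM.

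Pcgf1-KO EB replicates 4 and 5 stood apart from the other Pcgf1-KO EBs, with Klf4, a marker of naive ESCs, at 74.6 and 62.0 TPM against 4.85 to 20.2 TPM, and the epiblast marker Fgf5 at 11.2 and 8.46 TPM against 25.1 to 45.8 TPM. Ligand genes differed in the same libraries. Bmp4 was 17.8 and 16.4 TPM in them, where control EBs of the same series had 2.51 and 2.83 TPM, whereas Pcgf1-KO EB replicates 2 and 3 had 3.35 and 3.58 TPM and their controls 4.07 and 4.55 TPM. Wnt8a was 0.388 and 0.364 TPM in replicates 4 and 5 against 6.44 to 11 TPM in the others, and Wnt3 was 0 and 0.118 TPM against 0.878 to 3.52 TPM. Over all 5 libraries neither Bmp4 (adjusted p = 0.212) nor Wnt8a (adjusted p = 0.238) was called. Over replicates 1 to 3 alone no ligand gene was called in EBs by limma, beside 38 of all 19555 genes. Over replicates 4 and 5 alone the log2 fold change was 2.64 for Bmp4, 2.54 for Fgf10 and -3.75 for Wnt8a. No count is given there, as control ESCs hold 1 library in that fit.

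Among the other genes of the pathways, Notum, which encodes an enzyme that inactivates Wnt ligands, rose in Pcgf1-KO EBs from a mean of 4.90 TPM to 17.6 TPM (log2 fold change 1.80, SE 0.27, adjusted p = 0.00192), 1 of 16 Wnt antagonists. Wls, which carries Wnt ligands to the cell surface, fell from 6.28 TPM to 1.55 TPM (log2 fold change -1.88, SE 0.35, adjusted p = 0.00782). Cdx1 was the 1 of 8 Wnt-responsive genes and Chrd, a BMP antagonist, the 1 of 14 called, both higher. Over all genes 1.95% were called in these EBs. None of the 12 FGF-responsive and 8 BMP-responsive genes was called in either stage for the loss of PCGF1. In Pcgf1-KO EBs 3 of 6 primitive endoderm markers, Gata4, Gata6 and Pdgfra, were higher as well, and their sum over all 6 was 6.24 to 20 TPM against 2.78 to 4.96 TPM. The part of such cells in the ligand values was not tested.

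**Figure D3:**
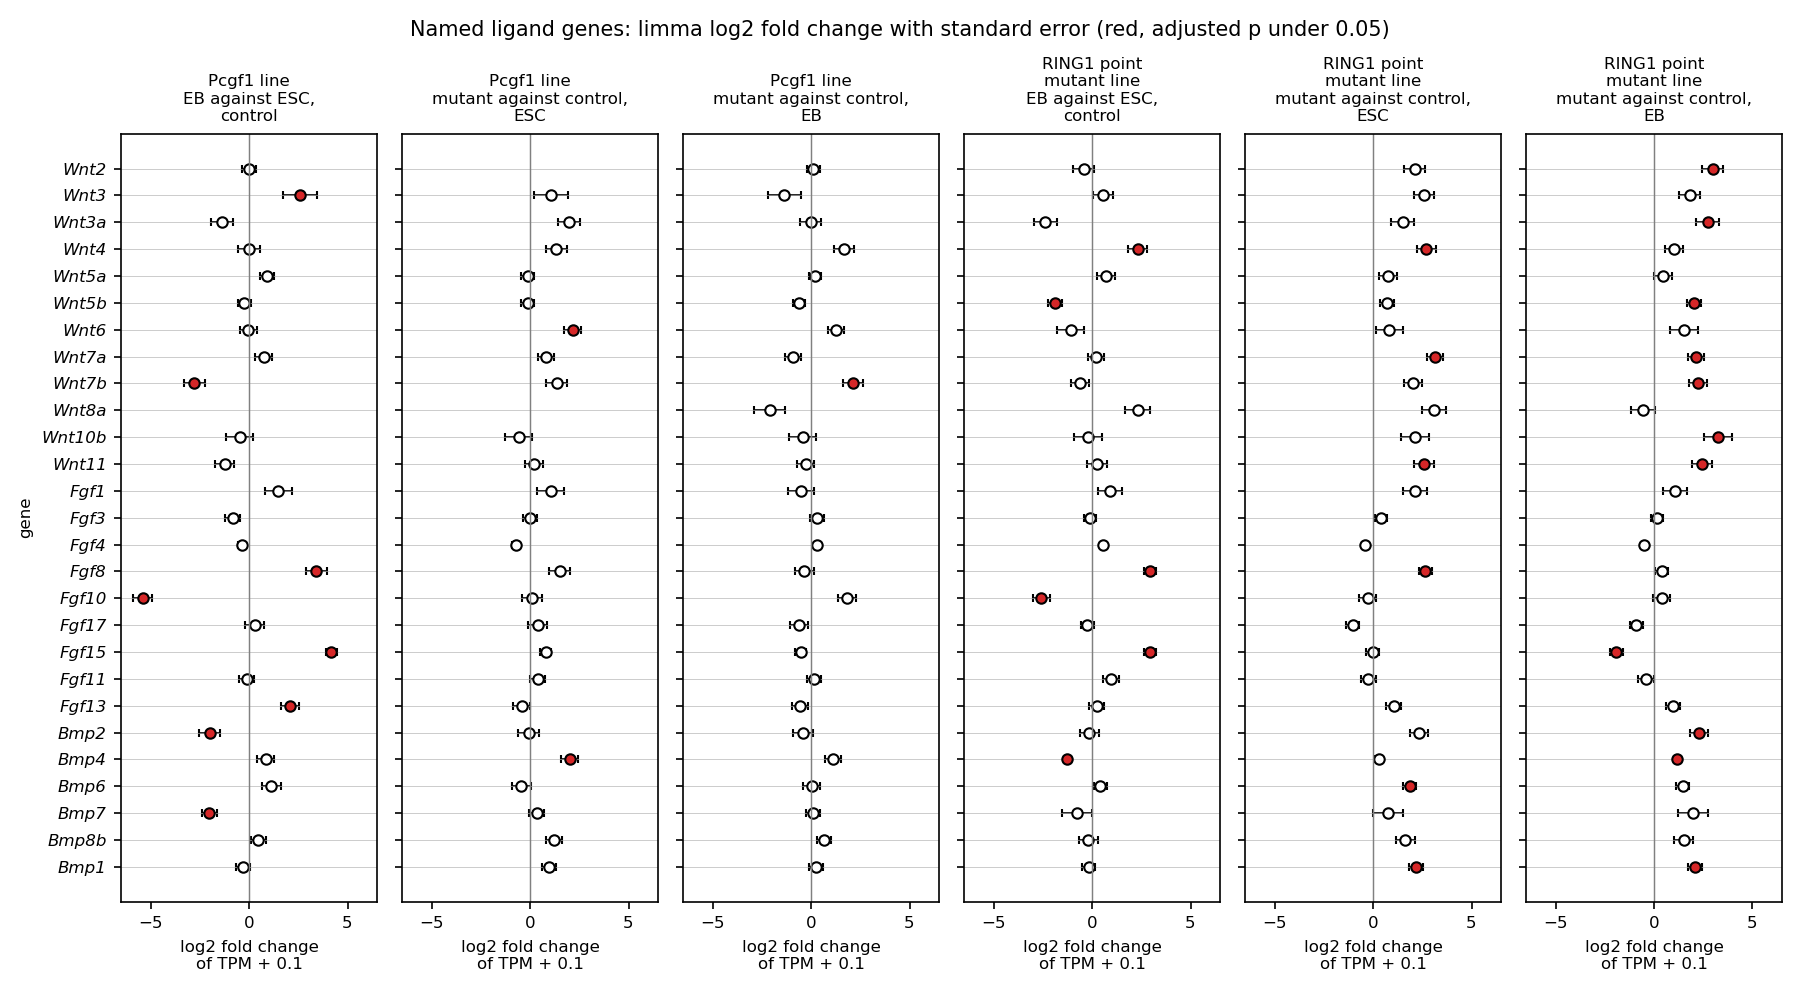
Log2 fold change of TPM + 0.1 with its standard error for the 27 named genes (Wnt, then FGF, then BMP) in 3 comparisons of each line, with genes of an adjusted p below 0.05 in red. Wnt8a and, in KO ESCs, Wnt2 of the Pcgf1 line are left out where a group is listed at 0 throughout. Of the genes called in the mutant against control panels, Fgf15 in EBs of the point mutant line (-1.92) lies left of 0 and the others lie to the right.

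The third question is what the loss of RING1 catalytic activity did. In ESCs of the point mutant line 6 of 50 genes were called, all higher in the mutant (12%), against 2.54% of all genes called in either direction and 2.34% called higher. A further 17 genes reached an unadjusted p below 0.05 only, which makes 23, of which 21 were higher. In 32 of the 50 genes (64%) both mutant libraries were above both controls, which held for 32.5% of all genes, and in 4 genes both were below, which held for 12.9%. The median log2 fold change was 0.98 over the ligand genes and 0.12 over all genes. Median-of-ratios scaling, which sets the shift over all genes to 0, ended the call of Wnt11 here (log2 fold change 2.45, adjusted p = 0.0576).

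Mutant EBs gave a like picture. There 12 of 50 genes were called (24.0%), 11 higher and Fgf15 lower, against 4.53% of all genes called (3.76% higher and 0.764% lower). Both mutant libraries were above both controls in 30 of the 50 genes (60%), against 30.1% of all genes, and the median log2 fold change was 0.95 over the ligand genes and 0.10 over all genes. The number of ligand genes at 1 TPM or more rose from 15 to 18 per control library to 26 to 28 per mutant library, counted over ESCs and EBs. The Pcgf1 line had 15 to 23 in control and 15 to 23 in KO libraries. Over all genes the point mutants also had fewer genes listed at 0. These were 7048 and 7342 in control and 6336 and 6543 in mutant ESCs. In EBs they were 6762 and 7015 in controls and 6216 and 6264 in mutants. The share of all genes at 1 TPM or more was not computed, so the rise is not set apart from this shift. With 2 libraries per group the calls in the point mutant are weak. Leaving out any 1 library left no ligand gene called by limma in either stage, with 18 or 19 at an unadjusted p below 0.05 in ESCs and 15 to 23 in EBs, and over all genes 30 to 52 calls in place of 515 in ESCs and 33 to 130 in place of 918 in EBs. A fit of only the groups compared called 0 ligand genes in ESCs, beside 0 of all 19358 genes, and 1 in EBs, beside 169 of 19600.

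**Figure D4:**
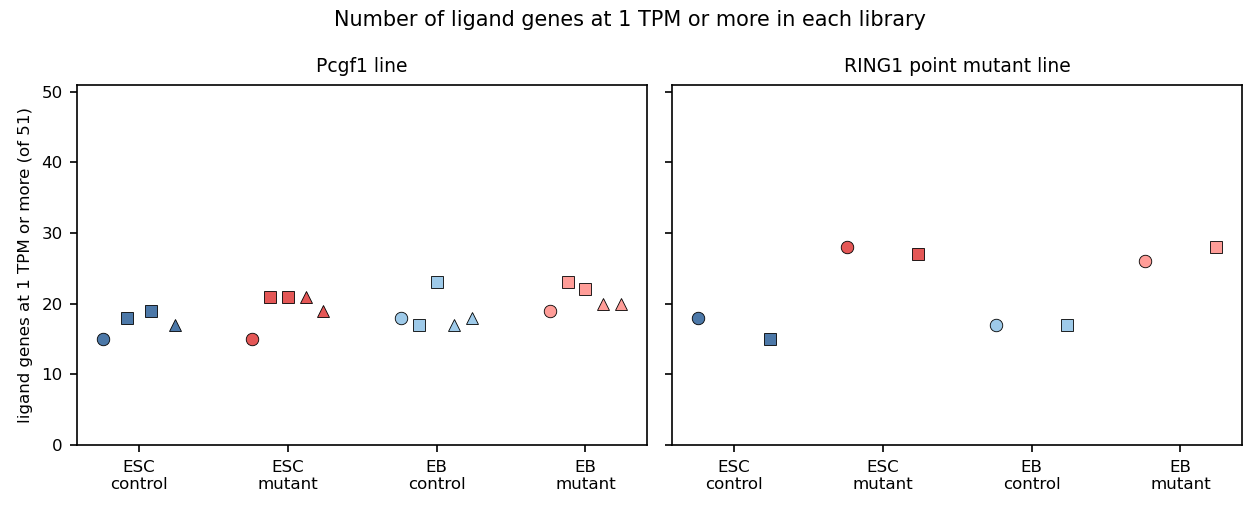
Number of the 51 ligand genes at 1 TPM or more in each library, by group, for the Pcgf1 line (left) and the point mutant line (right), on an axis from 0 to 51. The 4 mutant libraries of the point mutant line sit at 26 to 28 and its 4 control libraries at 15 to 18, while the groups of the Pcgf1 line overlap. Over all genes these mutant libraries also list fewer genes at 0 (6216 to 6543) than their controls (6762 to 7342).

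Of the 19 Wnt genes, 3 were called in mutant ESCs (Wnt4, Wnt7a and Wnt11) and 8 in mutant EBs, all higher, with no Wnt gene called lower. Wnt7a, a ligand of limb and nervous system whose promoter is printed above, was 0.104 and 0.0986 TPM in control ESCs and 1.65 and 1.71 TPM in mutant ESCs (log2 fold change 3.14, SE 0.40, adjusted p = 0.0159). In EBs it was 0.143 and 0.117 TPM in controls and 1.05 and 0.766 TPM in mutants (log2 fold change 2.12, SE 0.40, adjusted p = 0.0326). All 4 mutant libraries were above all 4 controls, at levels that remain low. In the Pcgf1 line Wnt7a did not exceed 0.291 TPM in any library.

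**Figure D5:**
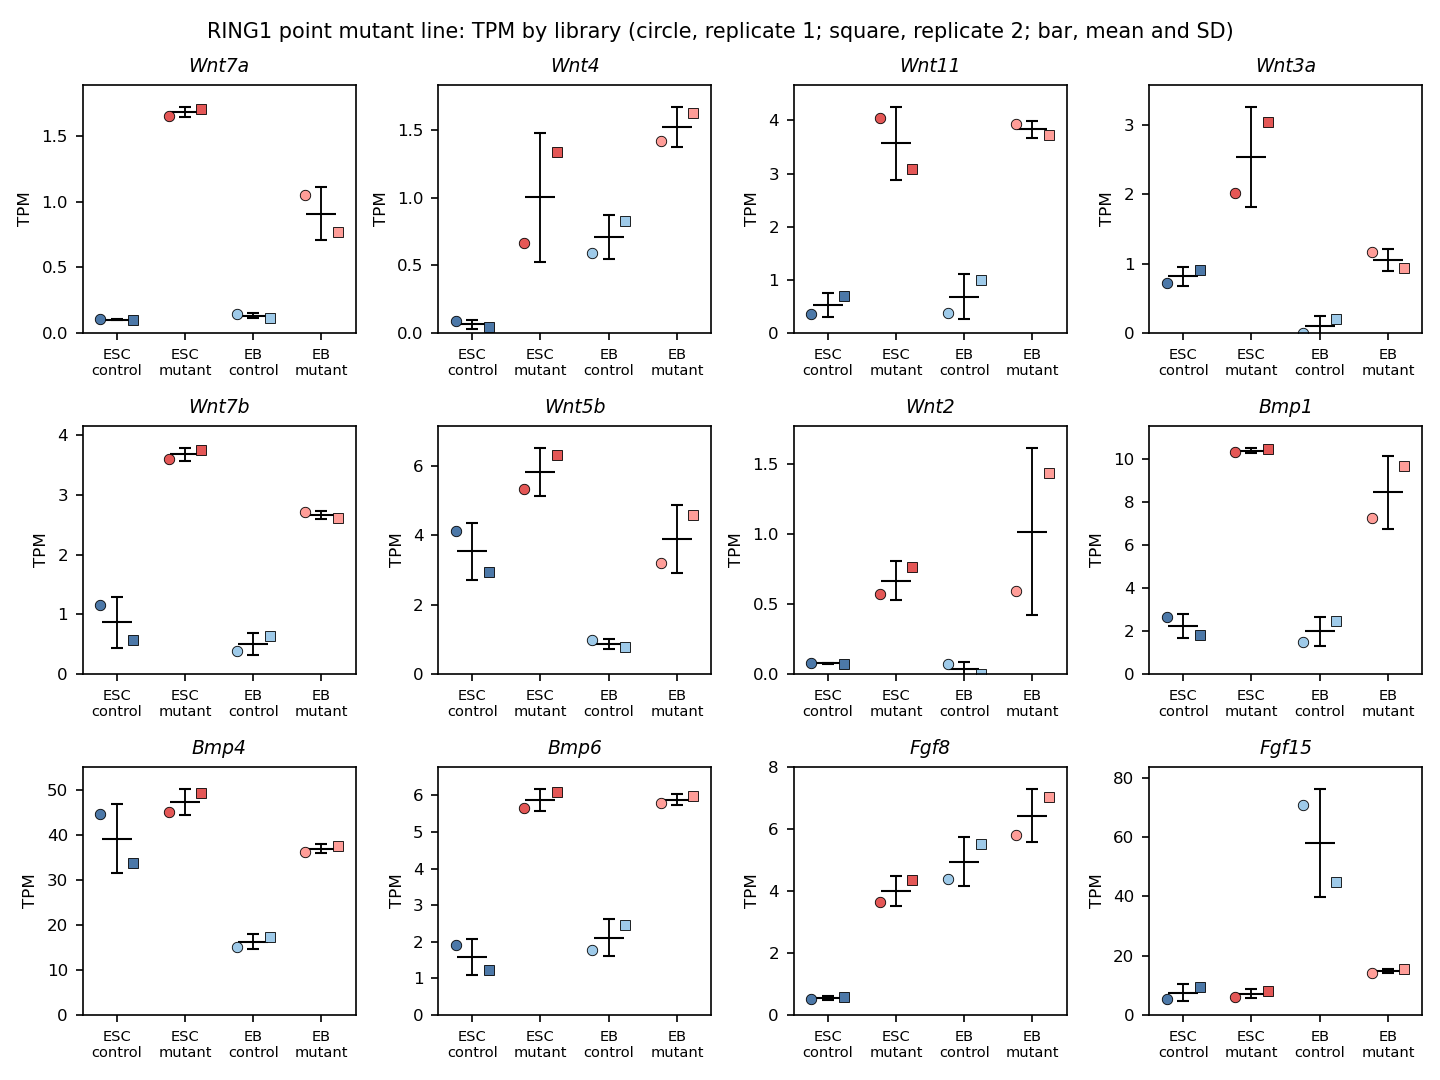
Levels of 12 ligand genes in the 8 libraries of the point mutant line, in TPM on a linear axis that starts at 0, for control and mutant ESCs (dark) and EBs (light), with the mean and SD of 2 libraries as bars. Wnt11 is at 3.09 to 4.05 TPM in the 4 mutant libraries and at most 0.992 TPM in the 4 controls, and Fgf15 is lower in mutant EBs (14.3 and 15.4 TPM) than in control EBs (70.8 and 45.0 TPM).

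Wnt11, a ligand of cell movements in gastrulation and of the kidney, was 0.364 and 0.688 TPM in control ESCs, 4.05 and 3.09 TPM in mutant ESCs, 0.381 and 0.992 TPM in control EBs and 3.94 and 3.72 TPM in mutant EBs. The mutant libraries were above the controls in both stages, with log2 fold changes of 2.59 (SE 0.51, adjusted p = 0.048) in ESCs and 2.44 (SE 0.51, adjusted p = 0.0439) in EBs. Wnt4, a ligand of kidney and gonad, was 0.667 and 1.34 TPM in mutant ESCs against 0.0866 and 0.0409 TPM (log2 fold change 2.70, SE 0.47, adjusted p = 0.0345). In EBs it was 1.42 and 1.63 TPM in mutants and 0.596 and 0.827 TPM in controls and was not called (adjusted p = 0.284). Wnt7b was 3.60 and 3.75 TPM in mutant ESCs against 1.16 and 0.567 TPM (adjusted p = 0.0643), and 2.72 and 2.62 TPM in mutant EBs against 0.378 and 0.632 TPM (log2 fold change 2.22, SE 0.45, adjusted p = 0.0401).

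In EBs Wnt3a was 1.17 and 0.939 TPM in mutants against 0 and 0.203 TPM in controls (log2 fold change 2.72, SE 0.59, adjusted p = 0.048). Wnt5b was 3.21 and 4.58 TPM against 0.973 and 0.771 TPM (log2 fold change 2.02, SE 0.35, adjusted p = 0.0259), beside 4.12 and 2.95 TPM in control ESCs. Wnt2 was 0.593 and 1.44 TPM against 0.0718 and 0 TPM (log2 fold change 2.98, adjusted p = 0.0269), and Wnt10b 0.689 and 1.98 TPM against 0 and 0.0835 TPM (log2 fold change 3.24, adjusted p = 0.048). Both mutant libraries were above both controls in each of these genes. Wnt9b, the eighth called Wnt gene, stayed below 1 TPM. Several Wnt genes fell just outside the call in mutant ESCs, with Wnt3 at 1.01 and 1.55 TPM against 0.160 and 0.101 TPM (log2 fold change 2.57, SE 0.52, adjusted p = 0.0506) and Wnt8a at 3.06 and 2.90 TPM against 0.327 and 0.206 TPM (log2 fold change 3.09, SE 0.62, adjusted p = 0.052).

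Of 14 paracrine FGF genes Fgf8 was called, in ESCs, and none in EBs, with median log2 fold changes of 0.48 and 0.17, and the difference from the Wnt genes was not tested. Fgf8 was at 3.64 and 4.34 TPM in mutants against 0.502 and 0.593 TPM in controls (log2 fold change 2.66, SE 0.32, adjusted p = 0.0143). Its level in mutant ESCs came near that of control EBs (4.38 and 5.50 TPM), and in EBs mutants had 5.81 and 7.03 TPM, above the controls but not called (adjusted p = 0.553). Fgf15 was 6.23 and 8.20 TPM in mutant ESCs, which overlap the controls at 5.50 and 9.53 TPM. In EBs it was 14.3 and 15.4 TPM in mutants against 70.8 and 45.0 TPM in controls (log2 fold change -1.92, SE 0.33, adjusted p = 0.0245), the single ligand gene called lower. Fgf4 was 109 and 92.4 TPM in mutant ESCs against 134 and 137 TPM, and 130 and 144 TPM in mutant EBs against 223 and 176 TPM, below the controls in both stages but not called (adjusted p = 0.193 and 0.0961). Fgf17 was likewise 9.07 and 7.22 TPM against 22.9 and 12.2 TPM in ESCs (adjusted p = 0.158) and 8.18 and 6.76 TPM against 16.1 and 12.2 TPM in EBs (adjusted p = 0.173). Fgf10 overlapped between mutants and controls in ESCs (1.81 and 3.02 TPM against 2.86 and 2.84 TPM).

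Among the BMP genes, Bmp4 was 36.2 and 37.7 TPM in mutant EBs against 15.1 and 17.4 TPM in control EBs (log2 fold change 1.18, SE 0.18, adjusted p = 0.0172). In ESCs mutants had 45.3 and 49.4 TPM and controls 44.6 and 33.9 TPM, just apart and not called (log2 fold change 0.28, SE 0.18, adjusted p = 0.504). Bmp6 was 5.67 and 6.09 TPM in mutant ESCs against 1.92 and 1.23 TPM (log2 fold change 1.86, SE 0.34, adjusted p = 0.0384), and 5.79 and 5.99 TPM in mutant EBs against 1.76 and 2.47 TPM (adjusted p = 0.0586). Bmp2 was 0.665 and 1.02 TPM in mutant EBs against 0.0426 and 0.156 TPM (log2 fold change 2.28, SE 0.47, adjusted p = 0.043), and in ESCs 1.09 and 0.864 TPM against 0.139 and 0.0878 TPM (adjusted p = 0.0521). All mutant libraries of these genes were above the controls of their stage. The protease gene Bmp1 was 10.3 and 10.5 TPM in mutant ESCs against 2.64 and 1.83 TPM (log2 fold change 2.19, SE 0.35, adjusted p = 0.0278), and 7.23 and 9.66 TPM in mutant EBs against 1.5 and 2.46 TPM (log2 fold change 2.06, SE 0.35, adjusted p = 0.0244). Bmp7 varied between libraries of a group, from 4.20 to 10.1 TPM in control ESCs and from 11.3 to 20.8 TPM in mutant EBs, and was not called.

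No ligand gene was called for a difference between ESCs and EBs in the effect of the mutation by limma, with 8 at an unadjusted p below 0.05 and 0.00986% of all genes called (0.00493% in each direction). Between mutant ESCs and mutant EBs no ligand gene was called either, with 3 at an unadjusted p below 0.05, against 0.133% of all genes (0.0493% higher and 0.0838% lower). In 11 genes (22%) both mutant EB libraries were above both mutant ESC libraries and in 12 (24%) below. These shares are close to the 19.1% and 20.4% of all genes. Fgf15, for example, was 6.23 and 8.20 TPM in mutant ESCs and 14.3 and 15.4 TPM in mutant EBs, and Fgf8 3.64 and 4.34 TPM and 5.81 and 7.03 TPM. These ranges are apart, which at such shares sets neither gene off from the rest, and neither was called. The comparison of control ESCs with control EBs uses other libraries.

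Over all genes 763 of the 918 called in mutant EBs and 475 of the 515 called in mutant ESCs were higher, and the other pathway genes are read beside these counts. In mutant EBs 3 of 16 Wnt antagonists were higher (Wif1, Sfrp5 and Trabd2b), and of 8 Wnt-responsive genes T and Cdx1. Cdx1 had a mean of 25.3 TPM in mutant and 1.03 TPM in control EBs (log2 fold change 4.93, SE 0.68, adjusted p = 0.0146). Of 15 Wnt receptors Fzd7 was lower, with a mean of 27.1 TPM against 73.0 TPM. Of 12 FGF-responsive genes Etv4 was higher and Spry1 lower, and Fgfr3 was higher among 7 receptor genes. Of 8 BMP-responsive genes Id1 and Id4 were higher, with Id1 at a mean of 249 TPM against 79.5 TPM, and Bmper was higher among 14 BMP antagonists. In mutant ESCs Nkd1, Fgfr2, Id2 and Msx1 were higher, and no receptor, antagonist or responsive gene was lower.

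Markers of other cell types and of the naive state moved with these genes. In mutant EBs the epiblast markers Otx2, Pou3f1 and Fgf5 were lower (3 of 4) and the naive markers Klf4, Tbx3 and Nanog higher (3 of 8), with an epiblast sum of 125 to 145 TPM in mutants and 425 to 657 TPM in controls. Of 12 fibroblast markers 6 were higher in mutant EBs, among them Col1a1, Twist1 and Thy1, with a sum of 102 to 105 TPM against 36.8 to 42.4 TPM, and 2 were higher in mutant ESCs, with a sum of 93.4 to 99.1 TPM against 47.4 to 49.0 TPM. Lum was at 0 in mutant and control ESCs and in control EBs. The primitive endoderm sum of 6 markers was 31.1 and 31.7 TPM in the mutant EBs against 8.71 and 11.4 TPM in their controls, with 21.8 and 22.7 TPM in the mutant ESCs against 4.72 and 5.63 TPM. Of 5 primitive streak markers T and Mesp1 were higher in mutant EBs, with a sum of 21.9 and 25.7 TPM against 7.82 and 11.9 TPM, and Mesp1 in mutant ESCs, with 21.4 and 22.9 TPM against 14 and 15.1 TPM. Of 5 trophoblast markers Hand1 and Gata3 were higher in mutant EBs, with a sum of 31 and 55.9 TPM against 5.59 and 16.2 TPM, and Hand1 in mutant ESCs, where the sums overlapped (25.6 and 49.0 TPM against 28.1 and 41.9 TPM). Elf5, a trophoblast marker, was at 0 in control EBs. The part of these cell types in the ligand values was not tested. Among the genes called higher with a RefSeq promoter, the 4 of mutant ESCs held 22 to 44 CG dinucleotides (median 35.5) and the 8 of mutant EBs 11 to 41 (median 28). Most of these are Wnt genes, and the 15 Wnt promoters as a family had a median of 28. A difference of the called genes from their family was not tested.

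In the other 4 lines the deletion is of Ring1b in ERT2-Cre;Ring1a-/-;Ring1bf/f cells (Ring1AB), or of the Pcgf genes for which the Pcgf24, Pcgf35 and Pcgf6 lines are named, each with 8 libraries. The labels of 21 of these 32 libraries differ from the file names, and targeted genes did not follow the labels. In the Ring1AB line Rnf2 was 62.9 to 80.5 TPM in libraries labelled mutant and 77.2 to 95.1 TPM in those labelled control. In the Pcgf6 line Pcgf6 was 34.7 to 46.3 TPM in libraries labelled EB and 67.1 to 105 TPM in those labelled ESC, whichever genotype the label gives. Over all 32 libraries Fgf4 was 129 to 381 TPM and again the highest of the named ligand genes, Fgf17 was 4.49 to 32.4 TPM, and Bmp4 was 2.17 to 36.2 TPM. Fgf15 ranged from 0.395 to 30.6 TPM and Wnt8a from 0 to 17.5 TPM, with 5 libraries at 0.

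For 11 of the 32 libraries label and file name give the same condition, 5 of control ESCs, 5 of mutant EBs and 1 of control EBs. They are from different lines, so they are described and not tested. Such agreement does not verify the genotype, and the targeted genes were not lower in all of the mutant EBs. Mutant EBs of the Ring1AB line had 78.1 to 80.5 TPM of Rnf2, and its control ESCs 77.2 to 78.2 TPM. Pcgf2 and Bmi1 (Pcgf4) were higher in the mutant EB than in the control ESC library of the Pcgf24 line. Pcgf3 and Pcgf5 of the Pcgf35 line were 27.6 and 21.3 TPM against 29.2 and 24.7 TPM. Pcgf6 of the Pcgf6 line was 46.3 against 91.5 TPM. Fgf15 was 0.395 to 1.05 TPM in the 5 control ESC libraries and 9.15 to 30.6 TPM in the 5 mutant EB libraries. Wnt8a was 0 to 0.272 TPM and 1.52 to 14.6 TPM, and Fgf10 2.17 to 6.11 TPM and 0.103 to 1.94 TPM. Of the 11 genes called between control ESCs and EBs of the Pcgf1 line, Fgf15, Wnt8a, Fgf10, Fgf9, Fgf13 and Wnt3 were apart in the same direction here, while Fgf8, Fgf14, Bmp7, Wnt7b and Bmp2 overlapped. The share of all genes that are apart in these libraries was not computed. Unlike that control step, these groups differ in labelled genotype as well as in stage. Bmp2, which fell in the Pcgf1 line, had a median of 1.48 TPM in these mutant EBs and 0.0817 TPM in the control ESCs. Bmp4 was 3.00 to 5.69 TPM in the control ESCs and 4.25 to 36.2 TPM in the mutant EBs, where the 2 Ring1AB libraries were the highest with 33.5 and 36.2 TPM. In those 2 libraries Wnt11 was 3.94 and 4.49 TPM and Fgf4 134 and 140 TPM, against 259 and 260 TPM of Fgf4 in the 2 control ESC libraries of that line. The single control EB library, of the Pcgf35 line, had 12.2 TPM of Fgf15, 9.82 TPM of Wnt8a and 0.177 TPM of Fgf10.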

How the data were processed

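RNA-seq of 59 libraries from 6 mouse ESC lines was used. The authors mapped single-end reads to mm9 with STAR (version 2.5.2b), per the paper's methods and the submitters' processing notes, which also name DESeq2, and deposited TPM per gene symbol, 1 file per library. The step from counts to TPM is not given in the sources used here. DESeq2 was not used here, since TPM are no counts. Libraries were grouped by their labels. For 1 Pcgf1-KO EB library title and characteristics give different replicate numbers (4 and 5), and that of the title was kept. No 2 of the 1711 pairs of libraries were identical.

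In R (version 4.3.3) log2(TPM + 0.1) of genes above 0 TPM in at least 1 library of a line was fitted with limma (version 3.58.1), 1 fit per line over its 4 groups with an empirical Bayes trend, for EBs against ESCs, mutant against control and their interaction, and p-values were adjusted after Benjamini-Hochberg over all genes tested. The fit was tested on simulated data. Same-numbered libraries of the Pcgf1 line deviated together from their group means (r 0.32 to 0.65 for each pair of groups, over 13400 genes with a mean of at least 1 TPM), so the replicate number was taken to pair them and used as a block in an alternative. Other alternatives were a pseudocount of 1, a mean of at least 1 TPM, median-of-ratios scaling, only the groups compared, each library left out in turn and, added after the data were seen, replicates 1 to 3 or 4 and 5 of the Pcgf1 line alone, which the file headers give as separate library series. Named genes are members called in a comparison where either group averaged 1 TPM or more, or averaging 5 TPM or more in any group. The members, the pathway lists and the marker lists were chosen with earlier results of these data known. Gene positions are from GENCODE vM1 (mm9) and promoters from RefSeq (GRCm38.p6). Python (version 3.11.15), pandas (version 2.3.3), numpy (version 2.4.6) and matplotlib (version 3.10.9) made tables and plots.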

Additional observations from a re-analysis of the deposited data

Results flagged for a closer look

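The 27 named genes were checked for a library far from the others within each of the 4 groups of the Pcgf1 line, and 11 of 106 sets of values held one, where chance alone flags about 1 in 20. That rate does not hold for the sets of Wnt2 and Wnt7a below, in which all other libraries were at 0, so that any value above 0 stands out by construction. The groups of 2 libraries of the other lines were too small for this check. In control ESCs these were Wnt11 in replicate 3, at 2.67 TPM against 1.05 to 1.30 TPM in the others, and Wnt2 in replicate 4, at 0.115 TPM with the others at 0. In Pcgf1-KO ESCs Bmp1 (2.13 TPM against 5.50 to 6.15 TPM) and Fgf17 (4.61 TPM against 14.3 to 16.2 TPM) were low in replicate 1, and Wnt3 was high in replicate 2 (0.891 TPM against 0.347 to 0.468 TPM). In control EBs Fgf11 was low in replicate 1 (2.75 TPM against 5.31 to 6.27 TPM), Wnt2 was 0.136 TPM in replicate 1 with the others at 0, and Wnt3a was 0.412 TPM in replicate 3 against 0 to 0.0553 TPM. In Pcgf1-KO EBs Wnt2 (0.242 TPM) and Wnt7a (0.108 TPM) were above 0 in replicate 1 alone, and Wnt3a was 0.335 TPM in replicate 5 against 0 to 0.0713 TPM.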

How the results depend on the processing

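Over all alternatives the fold changes of the genes called were recomputed 681 times, of which 478 stayed past the threshold, 203 did not and 0 changed direction. The alternatives share most of their libraries, so a change of direction was unlikely from the outset. The lines also differed. With only the groups compared, 24 of 29 calls of the Pcgf1 line stayed past the threshold, and 4 of 24 of the point mutant line. Counts of genes called in the Pcgf1 line moved as follows. For control EBs against ESCs (11) they were 17 with the replicate block and 19 over replicates 4 and 5. For Pcgf1-KO EBs against ESCs (15) they were 9 over replicates 1 to 3, beside 2646 of all 19555 genes. For the loss of PCGF1 in ESCs (2) they were 1 with only the groups compared, beside 93 of all 19532 genes. Over replicates 1 to 3 they were 1, beside 38 of all 19555 genes. For its loss in EBs (1) they were 0 with a pseudocount of 1, beside 500 of all 20594 genes. With a mean of at least 1 TPM they were 2, beside 377 of 13400, and with the replicate block 4, beside 2143 of 20594. They were 0 with only the groups compared, beside 68 of 19622, and 0 over replicates 1 to 3, beside 38 of 19555. For the interaction (0) they were 1 with the replicate block, beside 333 of all 20594 genes. Apart from the 19 above, counts over replicates 4 and 5 are left out, because control ESCs hold 1 library in that fit. The 19 is not read as a rise of the ligand genes, since calls over all genes rose in that fit too. In the point mutant line control EBs against ESCs (6) gave 3 with only the groups compared, beside 464 of all 19193 genes. Mutant against control EBs (12) gave 1 with only the groups compared, beside 169 of 19600. Mutant against control ESCs (6) gave 0 with only the groups compared, beside 0 of 19358, and 12 with the replicate block, beside 1326 of 20279. That block rests on 2 replicate numbers, which do not establish a pairing. Leaving out 1 library gave 9 to 14, 12 to 14, 0 to 1, 0 to 1 and 0 to 0 genes in the Pcgf1 line, in the order above, and in the point mutant line 1 to 3 for control EBs against ESCs and 0 to 0 for the other 4 comparisons, where a group of 1 library is assumed to vary like the others. These fits hold fewer libraries, and otherwise the cause was not tested. The block ended none of these calls. It also gave 3 genes for the loss of PCGF1 in ESCs (adding Fgf4), beside 1094 of all 20594 genes. For Pcgf1-KO EBs against ESCs it gave 22, beside 7573. In the point mutant line it gave 8 for control EBs against ESCs, beside 2018 of all 20279 genes, adding Wnt3a as lower and Wnt8a as higher. For mutant against control EBs it gave 16, beside 2056, adding Wnt6, Bmp6 and Bmp7 as higher and Fgf17 as lower. In the ESCs of that line the block added Wnt3, Wnt7b, Wnt8a, Fgf1 and Bmp2 as higher and Fgf17 as lower. Median-of-ratios scaling ended 3 of 24 calls of the point mutant line, Wnt11 in ESCs (adjusted p = 0.0576) and Wnt11 and Wnt3a in EBs (adjusted p = 0.0501 and 0.0547, limma). Read depth is unknown, so differences between values well below 1 TPM are the least secure.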
